A study of Mus musculus with 6 samples.

Results

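The SWI/SNF chromatin remodelling genes examined here were 10 subunit genes of the BAF and PBAF complexes, chosen by name from the 55471 genes of the count table: Smarca2, Smarca4, Arid1a, Arid1b, Arid2, Smarcc1, Smarcc2, Smarcb1, Actl6b and Pbrm1. All 10 were found by their Ensembl identifiers and all 10 passed the filters of the test. The set is best called by its rule, as SWI/SNF subunits of the hippocampus, because only Actl6b among the 10 is known as restricted to neurons, whereas the other 9 are used by many cell types and Arid2 and Pbrm1 belong to PBAF. Their transcripts were measured by RNA-seq in the hippocampus of 3 p300-ifKO mice and 3 control littermates, with 1 mouse per library.

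The p300-ifKO mice carried floxed Ep300, the gene for the lysine acetyltransferase p300, together with the Camk2a-creERT2 driver, a tamoxifen-inducible Cre recombinase that is active in excitatory forebrain neurons. Both groups were C57BL/6 per the labels (C57BL/6J in the methods of the study) and 3 to 6 months old, and both received tamoxifen in corn oil (20 mg/mL), given 5 times into the stomach. The methods describe the mice of this experiment as male and in the younger part of the 3 to 6 months. The study places its RNA-seq screens a month after gene ablation. The protocol text gives the controls as littermates negative for creERT2, and the methods of the study state the same for all its ifKO experiments. The description of each control library names Camk2a_creERT2, which differs from both. In the study, the only genes changed in p300-ifKO mice were higher in them, which it ascribes to the driver transgene. By the methods, the driver was present in the p300-ifKO group only, so its effects cannot be told apart from those of p300 loss. The hippocampus was taken whole, so interneurons, glia and vessels, in which the driver is not active, contributed to every value below. In such bulk tissue fewer cells of a type and less RNA per cell cannot be told apart. The question addressed was whether the loss of p300 in adult excitatory neurons altered transcript levels, and here it was asked for the remodeller that works on the same chromatin.

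SWI/SNF complexes use the energy of ATP hydrolysis to slide or evict nucleosomes and so open promoters and enhancers. Each complex holds 1 ATPase, SMARCA2 or SMARCA4. BAF and PBAF are completed by defining subunits: ARID1A or ARID1B in BAF, and ARID2 together with PBRM1 in PBAF. When neural progenitors leave the cell cycle, several subunits are exchanged for neuronal paralogues, among them ACTL6A for ACTL6B, SS18 for SS18L1 and PHF10 for DPF1 or DPF3. The ATPases and PBRM1 carry bromodomains, which bind acetylated lysines such as those that p300 and its paralogue CBP deposit on histones.

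Promoter sequences of 9 of the 10 genes were found in RefSeq annotation on GRCm38.p6, and 3 are shown as the stretch directly upstream of the gene start: those of Actl6b, the neuron-restricted subunit, and of Smarcb1, which were the only members with a higher mean in p300-ifKO mice, and that of the ATPase gene Smarca4, whose mean differed least between groups. Capitals mark GC boxes (GGGCGG, the motif of Sp-family factors) and CCAAT boxes (CCAAT), on either strand.
Actl6b, chr5:137553296-137553516, plus strand: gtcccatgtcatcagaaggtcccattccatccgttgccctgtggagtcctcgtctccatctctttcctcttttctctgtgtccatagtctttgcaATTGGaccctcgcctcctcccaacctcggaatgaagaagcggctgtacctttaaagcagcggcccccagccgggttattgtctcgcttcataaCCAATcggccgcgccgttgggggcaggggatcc
Smarca4, chr9:21615919-21616168, plus strand: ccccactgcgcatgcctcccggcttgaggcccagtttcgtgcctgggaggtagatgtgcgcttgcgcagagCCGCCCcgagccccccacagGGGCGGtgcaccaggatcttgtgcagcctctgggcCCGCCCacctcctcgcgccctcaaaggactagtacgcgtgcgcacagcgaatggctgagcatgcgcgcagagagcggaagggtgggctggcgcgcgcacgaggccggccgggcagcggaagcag
Smarcb1, chr10:75921618-75921864, minus strand: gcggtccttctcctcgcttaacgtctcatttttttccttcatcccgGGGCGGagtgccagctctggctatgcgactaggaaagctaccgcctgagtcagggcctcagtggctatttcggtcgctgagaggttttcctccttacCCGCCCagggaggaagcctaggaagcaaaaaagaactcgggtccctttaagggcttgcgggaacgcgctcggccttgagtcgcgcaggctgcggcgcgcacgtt

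The Actl6b stretch of 221 bases held 2 CCAAT boxes, 0 GC boxes and 12 CpG dinucleotides, with a GC content of 56.6%. The Smarca4 stretch of 250 bases held 3 GC boxes, 0 CCAAT boxes and 25 CpG dinucleotides, with a GC content of 70.8%, and the Smarcb1 stretch of 247 bases held 2 GC boxes and 21 CpG dinucleotides at 59.5% GC. Most of the full windows run on past the gene start. Those of Smarcc1 and Arid1b, and another window of Arid1a, lie inside the annotated gene. Over the full windows, a GC box occurred in 9 of 9 members (35.7% of all 32851 promoter windows of that length). A CCAAT box occurred in 1 of 9, Actl6b (37.4% of all windows). The cAMP response element TGACGTCA, the binding motif of CREB, a factor that recruits CBP and p300, occurred in 0 of 9 members and in 1.79% of all windows. Its half-site TGACG, which the full element contains, was present in 3 of 9 members (Smarcb1, Pbrm1 and Arid1b) and in 20.8% of all windows. A match describes letters in the window and not binding.

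Sequencing depth was even, with between 23151568 and 28433823 counts per library. The libraries of every pair differed by more than sampling noise, with a chi-square per degree of freedom of 4.40 or more over 15 pairs, so all 6 were used as separate replicates. The targeted gene Ep300 had 1545, 1474 and 2334 normalized counts (counts divided by the DESeq2 size factor of the library) in control mice and 478, 1350 and 912 in p300-ifKO mice. These groups did not overlap, but the difference of −0.97 (SE 0.33) on the log2 scale was not called by DESeq2 (adjusted p 0.991). The study shows the loss of p300 by immunostaining, and states that a truncated p300 is still expressed in these mice. The counts here cover all exons of Ep300. Ep300 was called without the second p300-ifKO library (−1.36, DESeq2 adjusted p 0.000356) and with 1 surrogate variable (−0.49, DESeq2 adjusted p 0.00205), and it was lower in p300-ifKO mice in every fit run. For Crebbp, the gene of the related CBP, it was −0.055 (SE 0.11), and the direction changed with a length offset, to 0.17. All 10 markers fixed for excitatory neurons were detected, and their summed level overlapped between groups, at 5765 to 6425 TPM (counts per exonic length, scaled to the same sum in every library) in control and 5979 to 6462 in p300-ifKO mice. Among them Camk2a, the gene of the driver promoter, stood between 1618 and 2461 TPM. The summed level of 9 microglial markers did not overlap, at 652 to 713 TPM in control and 719 to 888 in p300-ifKO mice. The sums of every other marker list overlapped between groups. The mean was higher for 7 of 9 microglial markers, none was at 0 and 0 were called by DESeq2. Their median log2 fold change was 0.26, and 0.10 without the first p300-ifKO library and 0.073 with 1 surrogate variable. The 7 blood markers were all lower in mean, at 411 to 827 and 292 to 626 TPM. The part of these differences in the values of the subunit genes was not tested.

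Levels were compared between genes per length, as TPM from the exonic length in the table. The scaffold gene Smarcc2 stood highest, at 195 ± 27.6 TPM (SD over both groups, n = 6), and its lowest library (146 TPM) lay above every library of every other member. Actl6b (105 ± 9.97 TPM) and Smarca4 (94.9 ± 8.28 TPM) followed and overlapped each other, and the lowest Smarca4 library, at 81.7 TPM, lay above the highest Smarca2 library, at 61.7 TPM. From there on each gene overlapped the next: Smarca2 at 54.7 ± 8.15, Smarcb1 at 41.4 ± 5.90, Arid1a at 39.1 ± 10.7, Arid1b at 28.5 ± 6.79, Smarcc1 at 27.9 ± 5.38, Pbrm1 at 20.6 ± 5.08 and Arid2 at 13.9 ± 2.97 TPM (SD, n = 6 each). The highest members were thus a scaffold, the neuronal actin-related subunit and an ATPase, and both PBAF genes came last. The exonic length counts the exons of all annotated isoforms, so a gene with long untranslated or rarely used exons has its level understated.

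**Figure D1:**
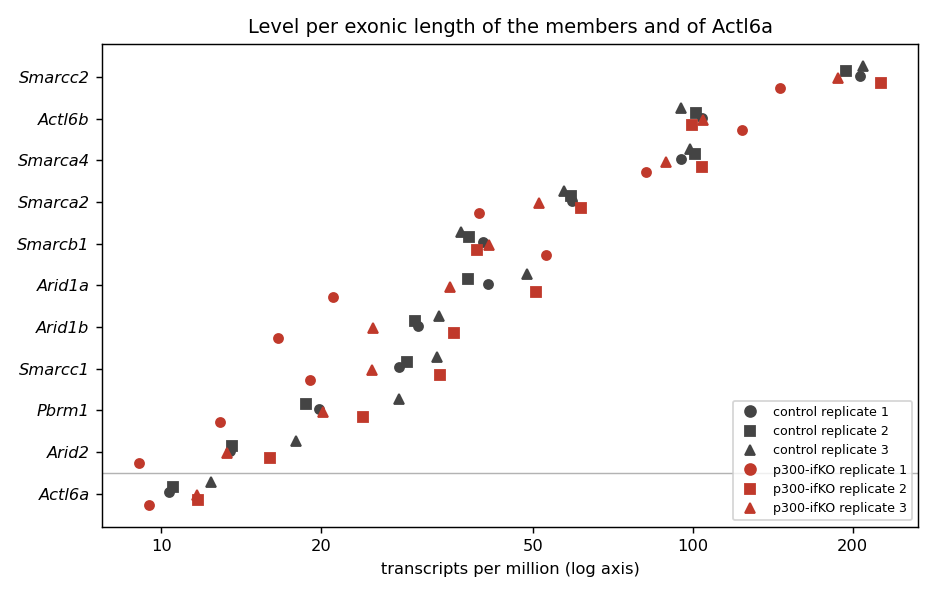
Level of each member, and of Actl6a for comparison, in TPM on a log axis, with 1 point per library (control grey, p300-ifKO red). Smarcc2 lies apart at the top, Actl6b and Smarca4 overlap near 100 TPM, and Pbrm1 and Arid2 lie lowest of the members.

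The ATPases, the motors of the complex, were examined first. Smarca2 (chromosome 19, 26605050 to 26778322 on GRCm38, plus strand) had 5507, 5648 and 5203 normalized counts in control mice and 4200, 5561 and 4894 in p300-ifKO mice. The first p300-ifKO library was the lowest of the 6 and the second lay among the controls, so the groups overlapped. In DESeq2 the difference was −0.16 on the log2 scale (SE 0.14, unadjusted p 0.265, adjusted p 0.991). Smarca4 (chromosome 9, 21616169 to 21704230, plus strand) had 4019, 4386 and 4069 normalized counts in control mice and 3929, 4251 and 3843 in p300-ifKO mice. It was the most even of the 10 genes between groups, with means of 4158 ± 199 and 4008 ± 215 (SD, n = 3). The log2 fold change of −0.053 (SE 0.11, 95% interval −0.27 to 0.16) left room for at most a 1.12-fold higher or a 0.831-fold level in DESeq2. With a length offset per library both directions changed, to 0.042 for each gene.

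The ARID subunits of BAF, which bind DNA and hold the complex together, had the largest spread within the p300-ifKO group. Arid1a (chromosome 4, 133679008 to 133756769, minus strand) had 3081, 2904 and 3561 normalized counts in control mice and 1794, 3673 and 2679 in p300-ifKO mice. The highest and the lowest of the 6 values were both in the p300-ifKO group, whose coefficient of variation was 34.6% against 10.7% in control. Arid1a had a log2 fold change of −0.23 (SE 0.24), which was −0.0041 without the first p300-ifKO library and −0.51 without the second (DESeq2 adjusted p 0.0540). Arid1b (chromosome 17, 4994332 to 5347656, plus strand), the paralogue that takes its place in other BAF complexes, had 2499, 2534 and 2665 normalized counts in control mice and 1554, 2824 and 2105 in p300-ifKO mice. Again the p300-ifKO libraries enclosed the narrow control range, with a coefficient of variation of 29.5% against 3.42%. Its log2 fold change of −0.25 (SE 0.21, unadjusted p 0.247, adjusted p 0.991 in DESeq2) was the lowest of the 10 members. Without the second p300-ifKO library the value was −0.48 (DESeq2 adjusted p 0.0356), the single call of a member at 0.05 in any fit, and that fit called 938 genes.

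The core subunits join the ATPase to the rest of the complex. The scaffold gene Smarcc2 (chromosome 10, 128459248 to 128490482, plus strand) had 7484, 7245 and 7399 normalized counts in control mice, the tightest group among the members, and 6008, 7937 and 6945 in p300-ifKO mice. The control libraries had a coefficient of variation of 1.64%. DESeq2 gave −0.083 (SE 0.14) on the log2 scale, and 0.011 without the first p300-ifKO library. Its paralogue Smarcc1 (chromosome 9, 110117708 to 110240178, plus strand) had 1428, 1527 and 1642 normalized counts in control mice and 1106, 1653 and 1303 in p300-ifKO mice. This difference was −0.18 (SE 0.18) on the log2 scale. For both scaffolds the second p300-ifKO library was the highest of the 6 and the first the lowest. Smarcb1 (chromosome 10, 75896769 to 75921617, minus strand), a core subunit that contacts the nucleosome, had 2080, 2017 and 1850 normalized counts in control mice and 3118, 1965 and 2183 in p300-ifKO mice. Here the first p300-ifKO library stood far above the other 5, which lay between 1850 and 2183. The log2 fold change of 0.29 (SE 0.19) was the highest of the members and its unadjusted p of 0.136 in DESeq2 the smallest. It was 0.064 without the first p300-ifKO library, 0.023 with 1 surrogate variable and 0.45 with a length offset.

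Actl6b, the actin-related subunit of neuronal BAF (chromosome 5, 137553517 to 137569582, plus strand), had 2899, 2910 and 2586 normalized counts in control mice and 3931, 2689 and 2976 in p300-ifKO mice. As for Smarcb1, the first p300-ifKO library was the highest and the second lay among the controls. This was a difference of 0.19 on the log2 scale in DESeq2 (SE 0.17, unadjusted p 0.265, adjusted p 0.991), and 0.016 in the lowest fit that left out 1 library.

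The PBAF genes had the lowest counts. Arid2 (chromosome 15, 96287518 to 96404992, plus strand), which targets PBAF, had 942, 978 and 1223 normalized counts in control mice and 725, 1086 and 951 in p300-ifKO mice. Pbrm1 (chromosome 14, 31019138 to 31121592, plus strand), the subunit with several bromodomains, had 1143, 1113 and 1576 normalized counts in control mice and 847, 1336 and 1191 in p300-ifKO mice. In both genes the third control library was the highest of the 6 and the first p300-ifKO library the lowest. The log2 fold changes were −0.19 (SE 0.19) and −0.18 (SE 0.22), and the groups overlapped for each gene. Without the third control library they were −0.056 and −0.00033.

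**Figure D2:**
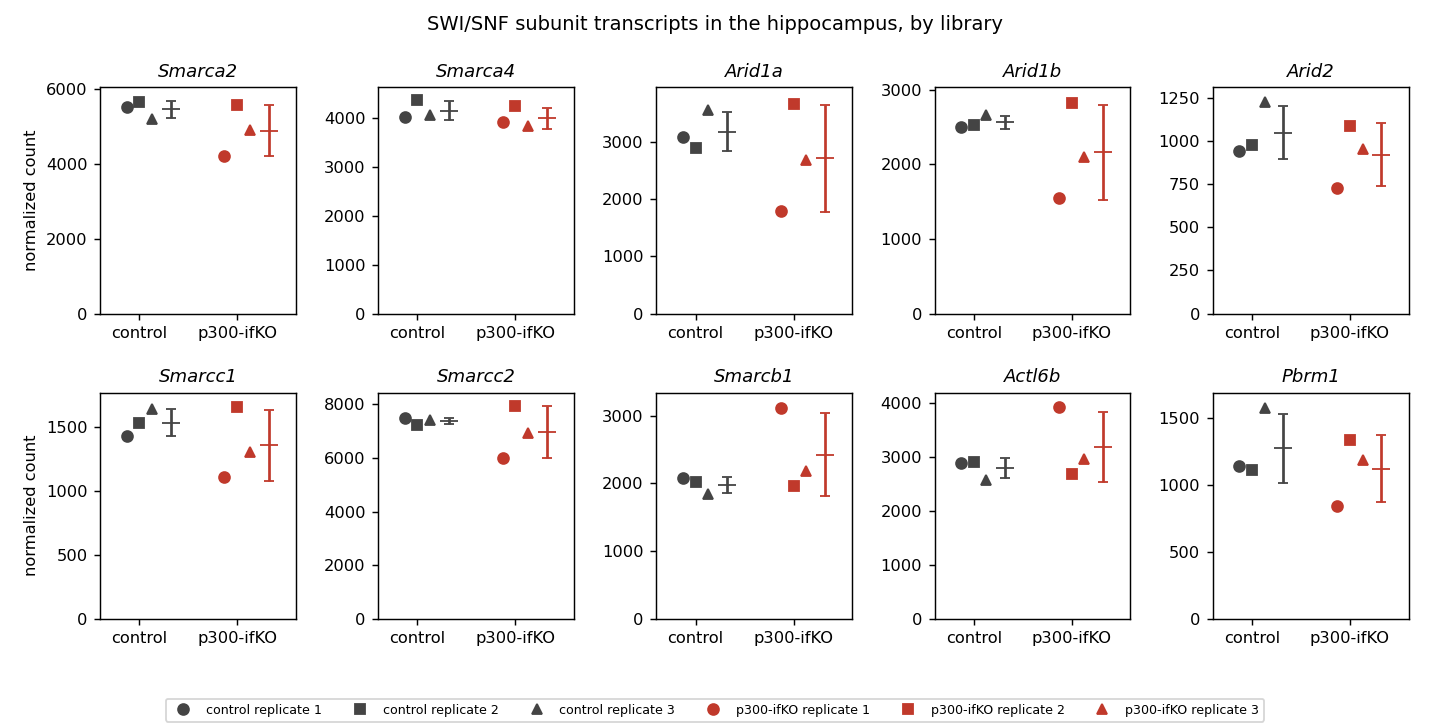
Normalized counts of the 10 members, 1 panel per gene with its own axis from 0, with 1 point per library and the mean ± SD (n = 3) beside each group. The first p300-ifKO library (red circle) is the lowest point in 7 panels and the highest in those of Smarcb1 and Actl6b.

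Across the set, 0 of 10 members passed an adjusted p of 0.05 in DESeq2, where 0.0061% of the 32773 genes tested did, and 0 of 10 had an unadjusted p under 0.05, against 1.32% of all genes. The edgeR quasi-likelihood test and limma-voom also called 0 of 10, with 0 at an unadjusted p under 0.05 in either. Without the second p300-ifKO library, DESeq2 called 1 of 10, Arid1b, where 8.43% of 11129 genes were called, and 6 of 10 had an unadjusted p under 0.05, against 12.8% of all genes in that fit. With a length offset, and with length and GC offsets, 1 of 10 had an unadjusted p under 0.05, Smarcb1 (0.0464 and 0.0497 in DESeq2), against 1.43% and 1.46% of all genes. These shares at an unadjusted p include many genes with few counts. All 10 members had a mean normalized count above 10, so the shares are not from genes matched in level. The members' log2 fold changes spanned −0.062 to 0.064 without the first p300-ifKO library and −0.51 to 0.42 without the second. The groups overlapped in all 10 members, and they were apart in 7.46% of the 17071 genes with a mean normalized count above 10. In mean, 8 members were lower and 2 higher in p300-ifKO mice, where 50.7% of those genes were lower. The split was 6 lower and 4 higher with a length offset, 7 and 3 with length and GC offsets, and 4 and 6 with 1 surrogate variable. The median log2 fold change of the members was −0.17, beside −0.046 over all genes tested and −0.0051 over the genes above 10. Each member's 95% interval lay within a 2-fold change in either direction, and for 6 of 10 it lay within 1.5-fold. The widest bounds were a 0.612-fold level for Arid1a and a 1.59-fold level for Smarcb1. The summed level of the 10 genes was 638, 623 and 658 TPM in control mice and 523, 691 and 592 in p300-ifKO mice, so that the p300-ifKO values enclosed the control values. The means of 639.6 ± 17.8 and 601.8 ± 84.5 TPM (SD, n = 3) did not differ beyond this spread (two-sided exact permutation test, p = 0.6, where 3 against 3 allows no p below 0.1).

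**Figure D3:**
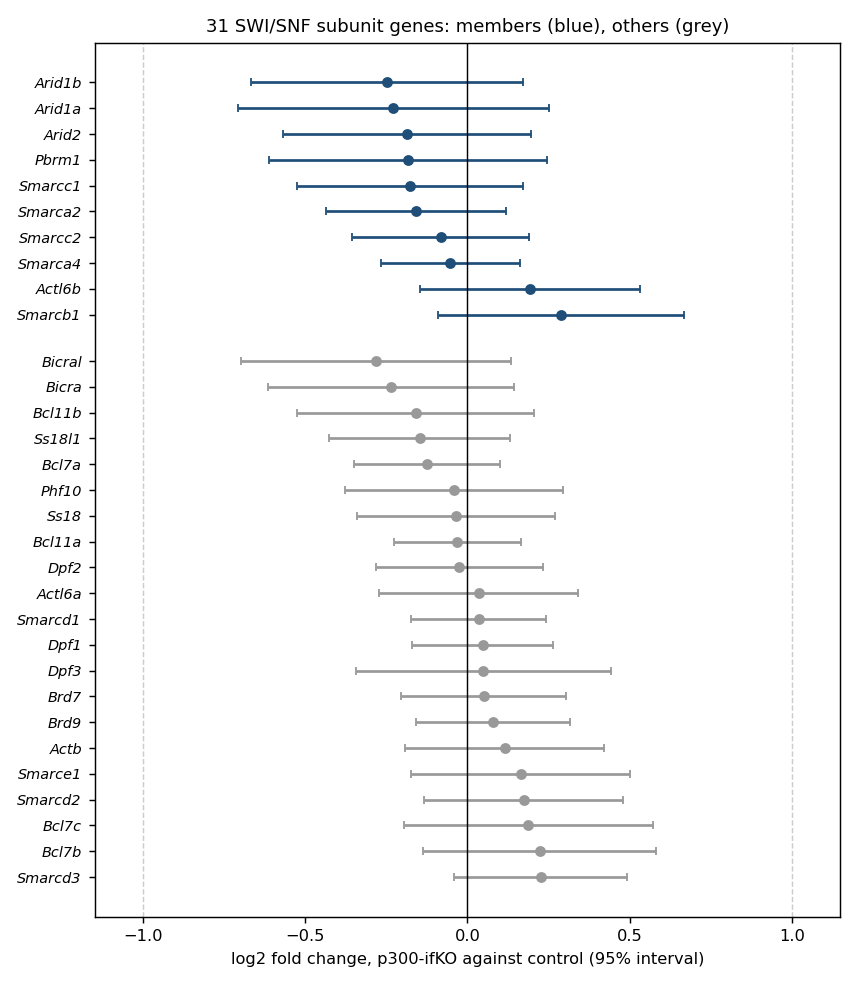
Log2 fold change of p300-ifKO against control with its 95% interval from DESeq2, for the 10 members (blue) and 21 other SWI/SNF subunit genes (grey). The dashed lines mark a 2-fold change, and every interval lies between them and includes 0.

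Within the p300-ifKO group the libraries differed in a recurring order. The first p300-ifKO library was the lowest of the 6 for 7 members and the highest for 2, so it was at an extreme for 9 of 10, and it was at an extreme for 74.8% of the genes above 10. The second p300-ifKO library was the highest of the 6 for 4 members. Over 6 libraries the correlation with the mean of the members on the log2 scale was between 0.59 and 0.99 for 8 members, and it was −0.95 for Smarcb1 and −0.97 for Actl6b, whose values ran opposite to the rest. These are descriptions over 6 libraries, and each gene is part of the mean it was compared with.

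Exonic length moved with the same libraries. The Spearman correlation, across 17071 genes, between exonic length and a library's ratio to the mean of all libraries was 0.18, 0.16 and 0.41 in the control libraries and −0.50, 0.41 and −0.28 in the p300-ifKO libraries, so long genes were low in p300-ifKO replicates 1 and 3 and high in replicate 2. The members had long exonic sequence, with a median of 8388 bases, from 4267 in Actl6b to 14269 in Smarca2. Genes in the length bins with medians of 7694 and 8782 bases had a median log2 fold change of −0.097 and −0.13, and the shortest member, Actl6b, was above the bin nearest to it (4275 bases, median 0.0053). Among the 10 members the Spearman correlation of the log2 fold change with exonic length was −0.67, and −0.64 without the first p300-ifKO library. Smarcb1, at 7930 bases and 0.29, lay above the medians of the bins on both sides of it. That length counts the exons of all annotated isoforms, and the length offset uses it. Bins of shorter genes had higher medians, such as 0.20 at 1633 bases. The length of the Smarcb1 transcripts present was not tested. The members' median log2 fold change was −0.028 without the first p300-ifKO library, −0.29 without the second, −0.021 with a length offset and 0.015 with 1 surrogate variable. The part of length in the members' values was not tested beyond these fits.

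**Figure D4:**
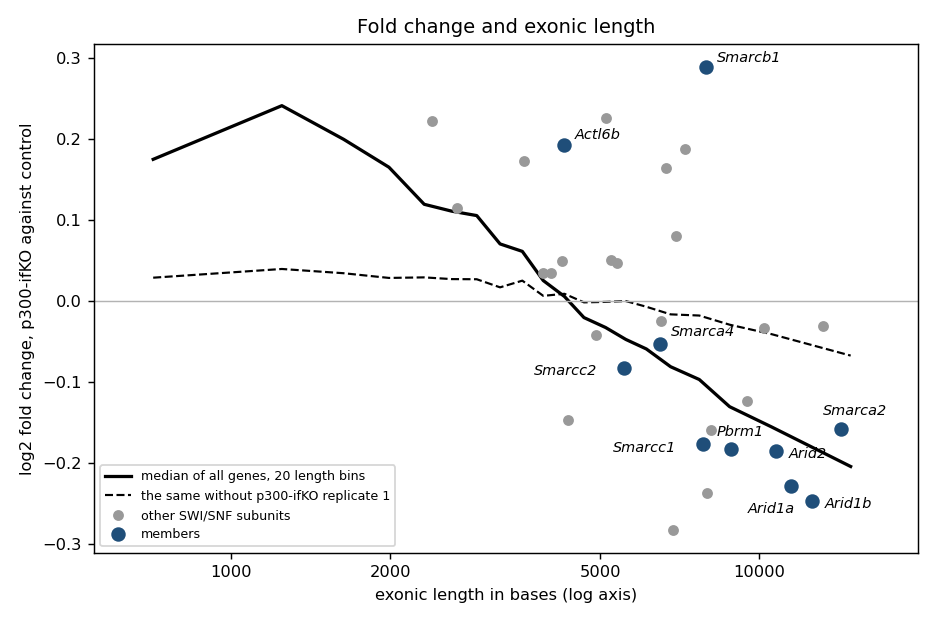
Log2 fold change of p300-ifKO against control (vertical) by exonic length in bases (horizontal, log axis) for the members (blue, named) and other SWI/SNF subunits (grey), with the median of all genes above 10 normalized counts in 20 length bins. The solid line runs from 0.17 in the shortest bin to −0.20 in the longest, and the dashed line, without the first p300-ifKO library, from 0.029 to −0.068.

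Ratios between paralogues within a library compare their transcripts per exonic length, and they do not depend on library size. Per exonic length, the transcript of neuronal Actl6b exceeded that of its progenitor form Actl6a 10.04-fold, 9.65-fold and 7.66-fold in control mice and 13.0-fold, 8.49-fold and 8.97-fold in p300-ifKO mice. The group means were 9.05-fold and 9.98-fold, and the groups overlapped (two-sided exact permutation test, p = 0.7). Neuronal Ss18l1 exceeded Ss18 5.74-fold in control and 5.25-fold in p300-ifKO mice, and Dpf1 exceeded Dpf2, which is used in many tissues, 1.35-fold and 1.42-fold. Between the scaffolds, Smarcc2 exceeded Smarcc1 6.80-fold and 7.30-fold. Of the ATPases, Smarca2 stood at 0.595 of Smarca4 in control and 0.550 in p300-ifKO mice, and Arid1b stood at 0.737 and 0.734 of Arid1a. The order of the ATPases rests on their exonic lengths, 14269 bases for Smarca2 and 6475 for Smarca4. In normalized counts Smarca2 was above Smarca4 in every library, at 4200 to 5648 against 3843 to 4386. The groups overlapped in all 6 pairs, the exact permutation p was between 0.2 and 0.9, and the values adjusted over the 6 pairs were between 0.75 and 0.9. Of the exonic stretches of 50 bases of Actl6a, 12.7% are found in another gene, most often Mrpl47 on the opposite strand. Actl6a had only 281 ± 23.2 normalized counts in control mice (SD, n = 3), so its ratio is uncertain.

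**Figure D5:**
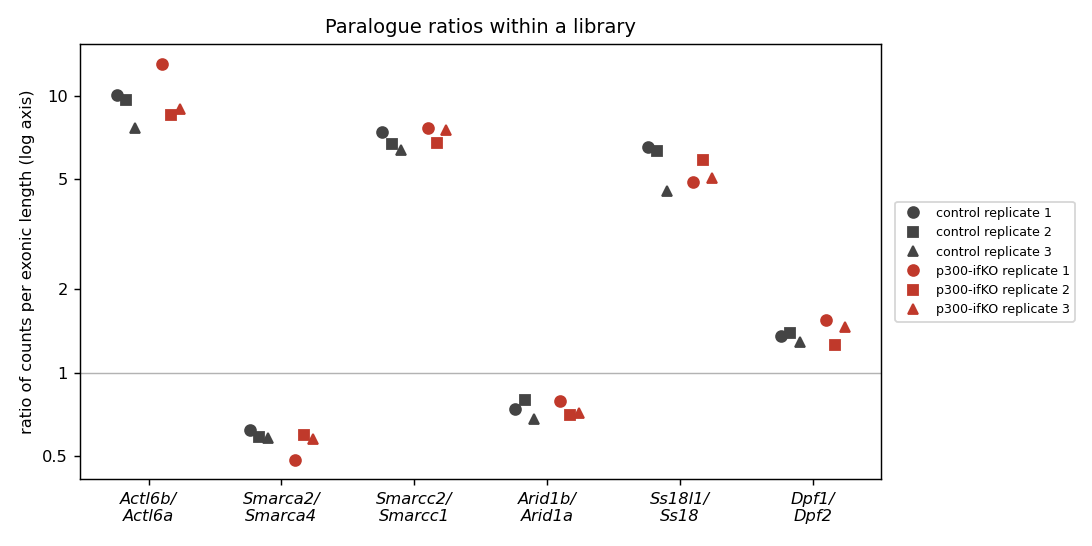
Ratio of counts per exonic length between 6 pairs of paralogues on a log axis, with 1 point per library (control grey, p300-ifKO red). Actl6b exceeds Actl6a in every library, from 7.66-fold to 13.0-fold, and within each pair the libraries of both groups overlap.

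The rest of the complex was read from a list of 21 further subunit genes. In DESeq2, 0 of 21 passed and 0 had an unadjusted p under 0.05, with 12 higher and 9 lower in mean and a median log2 fold change of 0.035. Over all 31 subunits, 17 were lower and 14 higher and the median was −0.031, which turned to 0.044 with a length offset. All 31 intervals lay within a 2-fold change and 25 within 1.5-fold. The lowest value was that of Bicral, a subunit of the non-canonical complex, at −0.28 (SE 0.21). Without the second p300-ifKO library DESeq2 gave −0.49 for Bicral (adjusted p 0.0473), in the fit that called 8.43% of 11129 genes. Smarcd3, an accessory subunit, was the single gene of the 31 whose groups did not overlap, beside 7.46% of the genes above 10. It had 823, 771 and 720 normalized counts in control mice and 995, 856 and 857 in p300-ifKO mice. For Smarcd3 the log2 fold change of 0.23 had an unadjusted p of 0.0982 in DESeq2. Of its exonic stretches of 50 bases, 51.2% are found in another gene, most often Chpf2, so its count is uncertain. The neuronal forms Ss18l1, Dpf1 and Dpf3 had log2 fold changes of −0.15, 0.046 and 0.049, and the progenitor forms Actl6a, Ss18 and Phf10 had 0.034, −0.034 and −0.042.

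ATPases of other remodeller families gave a comparison outside SWI/SNF. Of 16 such genes, 0 passed in DESeq2 and 0 had an unadjusted p under 0.05. All 16 were lower in mean, with a median of −0.16, where 50.7% of the genes above 10 were lower. The split was 10 lower and 6 higher with a length offset, 11 and 5 with length and GC offsets or without the first p300-ifKO library, and 6 and 10 with 1 surrogate variable. Without control replicate 3 it was 14 and 2. Without the second p300-ifKO library 1 of the 16 was called, Atrx, a remodeller of heterochromatin (−0.67, DESeq2 adjusted p 0.0351). In that fit 8.43% of 11129 genes were called. They ranged from −0.46 (SE 0.47) for Srcap, which exchanges a histone variant and had 44.0 to 164 normalized counts over the 6 libraries, to −0.038 (SE 0.14) for Smarca5, the ISWI motor. Their exonic sequence was longer still, with a median of 11684.5 bases, and their median was −0.035 with a length offset, −0.045 without the first p300-ifKO library and 0.031 with 1 surrogate variable.

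The 5 genes whose values over the 6 libraries were most like the mean of the members were Zfhx2, Ubxn2b, Srrm1, Zeb2 and Zfp280b, of 12222 candidates with a mean normalized count above 100. Their Pearson correlation was between 0.9975 and 0.9993 over 6 libraries, and 22.7% of the candidates exceeded 0.9, so such likeness was common. Their log2 fold changes lay between −0.24 for Zeb2 and −0.15 for Srrm1, and their exonic lengths between 5224 and 20203 bases.

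A few counts could be shared with neighbours. Exons of Smarcc1 overlap those of Dhx30 on the opposite strand, exons of Pbrm1 those of Gnl3 and exons of Smarca2 those of 4931403E22Rik, and a strand setting of the counting is not stated. The share of exonic stretches of 50 bases found in another gene was 2.50% in Smarcb1, 2.26% in Smarcc1 and 1.18% or less in the other 8 members.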

How the data were processed

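RNA was extracted from the hippocampus of individual mice and sequenced by the authors as single-end reads of 50 bases. Per the labels and the methods of the study, the authors checked reads with FastQC (0.11.8), trimmed them with Trim Galore (0.6.4), aligned them with STAR (2.6.1) to mm10 (GRCm38), dropped reads of low mapping quality and counted the rest on exons of Ensembl genes with Rsubread. The deposited table held these raw counts per gene, with exonic lengths. A strand setting is not stated in the sources used here. Of the 55471 genes, 55230 matched GENCODE M21 on the same build by identifier.

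Groups came from the sample titles. p300-ifKO was compared with control by a two-sided Wald test in DESeq2 (1.42.0, R 4.3.3; the submitters' notes give DESeq2 1.30.1), with no covariate, over 32773 genes and Benjamini-Hochberg adjustment at 0.05. Paralogue ratios used a pseudocount of 0.5. Alternatives were edgeR (4.0.16), limma-voom (3.58.1), TMM factors, a minimum of 10 counts in 3 libraries, no filter in edgeR, DESeq2 filters off, a threshold of 0.1, a replicate block, length and GC offsets (mgcv 1.9.3), 1 surrogate variable (sva 3.50.0) and leaving out each library. The DESeq2, edgeR, voom and length offset fits were tested on simulated data.

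The members, gene lists and tests were chosen with earlier results of these data known. Genes named were the members, Ep300, Crebbp, the other forms of the exchanged subunits, the extremes of the 2 further lists and the 5 genes most like the members. Other genes named were chosen after their values were seen. Depth was between 23151568 and 28433823 counts per library, and n is 3 mice per group.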

Additional observations from a re-analysis of the deposited data

How the results depend on the processing

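The count of genes past the threshold was 2 and rose to 4 with a replicate block, and it ranged from 2 to 938 when 1 library was left out, with 938 without p300-ifKO replicate 2. The members past the threshold ranged from 0 to 1 in the same fits. Whether replicate numbers pair the mice is not stated, although the original library names carry the same numbers in both groups. The deviations of same-numbered libraries correlated at 0.27, −0.28 and 0.13, which cannot decide it. With the replicate block the members' median log2 fold change was −0.18. That median ranged from −0.29 to −0.028 when 1 library was left out and was 0.015 with 1 surrogate variable. For all SWI/SNF subunits it was 0.044 with a length offset, 0.036 with length and GC offsets, 0.023 with 1 surrogate variable and −0.064 to 0.019 with 1 library left out. The group difference of the members' summed level ranged from −82.3 to 1.75 TPM. With a length offset the log2 fold change was 0.042 for Smarca2, 0.042 for Smarca4, 0.17 for Crebbp, 0.15 for Ss18, 0.067 for Dpf2 and 0.084 for Smarca5, and the log2 ratio difference was 0.0071 for Smarca2/Smarca4 and 0.0076 for Arid1b/Arid1a. With length and GC offsets it was 0.012 for Smarca2, 0.11 for Crebbp, 0.17 for Ss18, 0.073 for Dpf2, 0.049 for Phf10 and 0.16 for Smarca5. With 1 surrogate variable it was 0.082 for Arid1a, 0.036 for Arid2, 0.0076 for Smarcc1, 0.037 for Smarcc2, −0.026 for Actl6b, 0.085 for Pbrm1, 0.046 for Ss18, 0.076 for Dpf2, 0.13 for Phf10, 0.072 for Srcap and 0.058 for Smarca5. Leaving out 1 library gave −0.18 to 0.011 for Smarcc2, −0.012 to 0.11 for Actl6a, −0.11 to 0.097 for Ss18, −0.081 to 0.048 for Dpf2, −0.064 to 0.13 for Dpf3, −0.15 to 0.10 for Phf10, −0.091 to 0.048 for Smarca5, −0.053 to 0.26 for Actl6b/Actl6a and −0.062 to 0.049 for Arid1b/Arid1a. The cause of these moves was not tested. With 3 mice per group, the members' 95% intervals reached from 0.612-fold to 1.59-fold at their widest, and the depth of the libraries was similar.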
